A study of Ascodesmis nigricans with 6 samples.

Results

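A set of 99 genes of the cup fungus Ascodesmis nigricans, of 9622 gene models measured, was at low levels in vegetative mycelium. On the scale of library totals the set was at much higher and similar levels in protoapothecia and in sexual mycelium. The similarity depended on that scale. In the authors' deposited DESeq ratios 40 of the 99 genes were within 2-fold and 59 were more than 2-fold higher in protoapothecia. The genes were chosen by their CPM, the raw count of a gene in a library for every 1000000 counts of that library. A gene was taken if its lowest value among the protoapothecia and sexual libraries was at least 10 CPM and at least 10 times the higher of the vegetative libraries, if it had at least 1 raw count in a vegetative library, and if the means of protoapothecia and sexual mycelium lay within 2-fold of each other. The choice was thus made on the levels themselves in all 6 libraries, so the levels and the differences between tissues are given as a description, and no test is drawn from them.

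Ascodesmis nigricans belongs to the filamentous ascomycetes that carry their asci on apothecia, open cup- or disc-shaped fruiting bodies. A protoapothecium is the young stage of such a body, in which sterile hyphae of the mycelium come to surround the female organ before asci form. In filamentous ascomycetes the passage from vegetative growth to fruiting is known to go with large changes in transcript levels, and laser microdissection is used to collect the small young bodies apart from the hyphae around them.

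The samples were all of strain CBS 389.68, and 2 libraries were made from each of 3 tissues. The protoapothecia are labelled as isolated by laser microdissection, and the remaining libraries come from total mycelium, sexual or vegetative. The labels name no genetic change or added agent and give 1 growth protocol for every library, 3 days at 25 °C on microdissection slides with 150 to 200 µl of rabbit food agar medium with 0.8% agar, followed by fixation in ethanol at 4 °C. They do not say what set the sexual apart from the vegetative cultures, nor whether the sexual mycelium still held its protoapothecia when RNA was taken. Total RNA was amplified linearly before sequencing. Since microdissection was used for protoapothecia alone, effects of tissue and of collection cannot be told apart. The gene models bear protein identifiers without names or products, so no gene could be given a function and the labelled tissues could not be checked against marker genes.

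Library totals ran from 11589777 to 12835772 counts. The replicates are labelled as independent, and every pair of replicates differed by more than counting noise. Per library, the 99 genes took 2.32% and 1.78% of all counts from protoapothecia, against 1.27% and 2.43% from sexual and 0.0194% and 0.0242% from vegetative mycelium. One gene, proteinId395687, supplied 26.1% and 13.3% of these counts in protoapothecia and 14.4% and 17.0% in sexual mycelium. Without it the others still took 1.72% and 1.54% from protoapothecia, against 1.09% and 2.02% from sexual and 0.0194% and 0.0241% from vegetative mycelium.

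**Figure D1:**
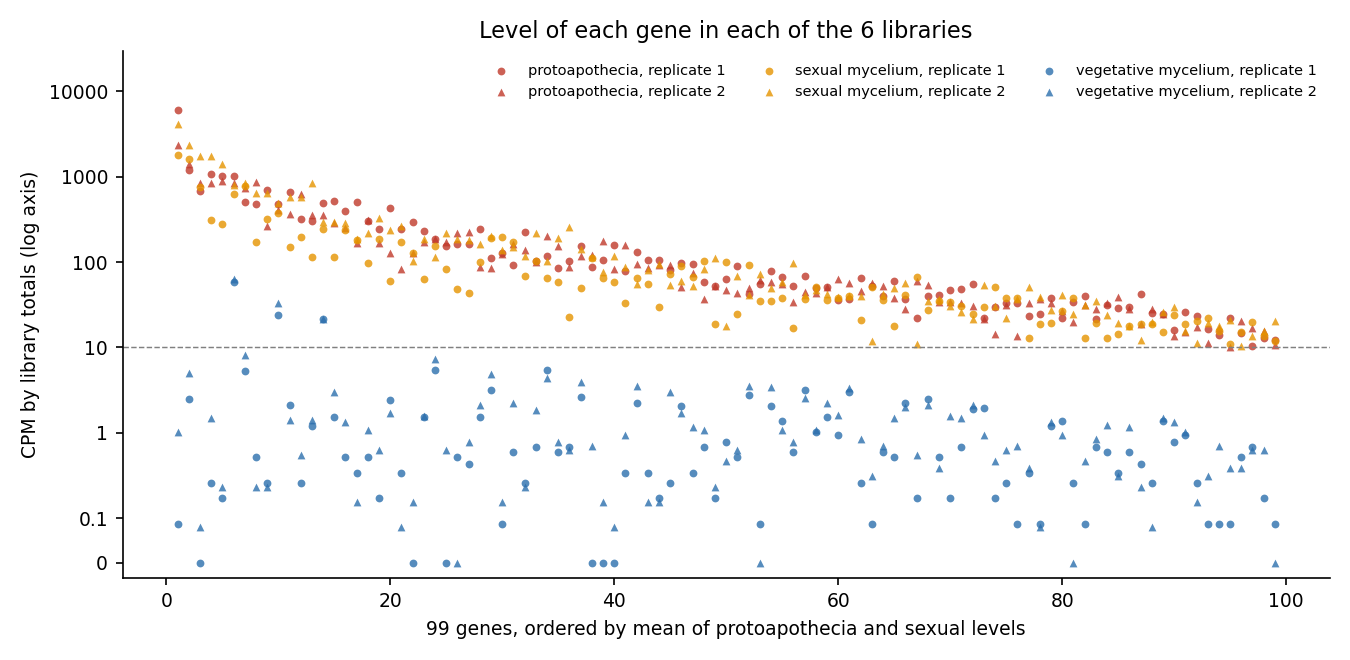
Level of each of the 99 genes in each library, in CPM by library totals on a log axis, with genes ordered from left to right by the mean of their protoapothecia and sexual levels (circles replicate 1, triangles replicate 2; the dashed line is 10 CPM, and values of 0 are drawn at the foot). The protoapothecia and sexual points intermingle over the whole range, from about 10 CPM up to 6073 CPM, whereas the vegetative points lie below 10 CPM for all but 3 genes.

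Across the 99 genes the mean level had a median of 60.9 CPM in protoapothecia (lowest 11.4, highest 4218), 59.9 CPM in sexual mycelium (lowest 12.8, highest 2975) and 0.689 CPM in vegetative mycelium (lowest 0.0390, highest 61.0). Divided by the length of the mRNA in kilobases, so that genes could be set beside each other, the median level was 41.1 CPM per kilobase in protoapothecia, 32.9 in sexual mycelium and 0.468 in vegetative mycelium. Over all gene models the same medians were 9.33, 18.9 and 7.25 CPM per kilobase. By CPM per kilobase 2 of the 99 genes were among the 100 highest gene models of protoapothecia, 6 among those of sexual mycelium and 0 among those of vegetative mycelium. The middle gene of the set thus stood above the middle gene model in both tissues of the sexual phase and below it in vegetative mycelium, which the rule largely fixes. Over the 4320 genes at 10 CPM or more in all 4 protoapothecia and sexual libraries the medians were 41.9, 45.2 and 21.7 CPM per kilobase in protoapothecia, sexual and vegetative mycelium. Beside those genes the set was not higher in protoapothecia and was lower in sexual mycelium. In bulk samples such as these, fewer cells that express a gene and less RNA of it per cell cannot be told apart.

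The gene with the highest level in its lowest library was proteinId395687, with an mRNA of 596 bases. It had 71627 and 29951 counts in protoapothecia (6073 and 2363 CPM), 21106 and 51217 counts in sexual mycelium (1821 and 4130 CPM), and 1 and 13 counts in vegetative mycelium (0.0857 and 1.01 CPM). All 4 libraries of protoapothecia and sexual mycelium were high, and their ranges overlapped, with 1 high and 1 lower library in each tissue. Its mean over the protoapothecia libraries was 4218 ± 2623 CPM and over the sexual libraries 2975 ± 1632 CPM (SD, n = 2 each), against 0.549 ± 0.656 CPM in vegetative mycelium. Pooled over replicates it was 7266-fold higher in protoapothecia than in vegetative mycelium (95% exact interval 4330 to 13291, counting error only) and 5277-fold higher in sexual than in vegetative mycelium (3145 to 9652).

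Next came proteinId354996 (1236 bases), at 1202 and 1426 CPM for protoapothecia, 1626 and 2335 CPM for sexual mycelium, and 2.48 and 5.06 CPM in vegetative mycelium. Here both sexual libraries lay above both protoapothecia libraries on the scale of library totals. In the authors' deposited DESeq table the ratio of protoapothecia over sexual mycelium was 1.28 for this gene. The third, proteinId342799 (871 bases), had the largest span of all 99 genes between the tissues of the sexual phase and vegetative mycelium. It was at 676 and 845 CPM in protoapothecia and at 756 and 1773 CPM in sexual mycelium, while the vegetative libraries held 0 and 1 count. Its lowest library stood 8679 times above the higher vegetative library, a value that rests on that single count. The pooled fold of protoapothecia over vegetative mycelium was 18710, with a 95% counting interval of 3358 to 739060.

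A further 3 genes of this top group were short models with vegetative counts in both libraries. For proteinId349007 (561 bases) the levels were 503 and 746 CPM for protoapothecia, 783 and 856 CPM for sexual mycelium, and 5.31 and 8.10 CPM in vegetative mycelium. For proteinId342336 (629 bases) protoapothecia had 1072 and 854 CPM, sexual mycelium 313 and 1741 CPM, and vegetative mycelium 0.257 and 1.48 CPM. For proteinId397042 (523 bases) they were 1025 and 882 CPM for protoapothecia, 283 and 1408 CPM for sexual mycelium, and 0.171 and 0.234 CPM in vegetative mycelium. In the last pair of genes the protoapothecia replicates lay close together and inside the span of the sexual replicates, which were 5.56-fold and 4.98-fold apart. With the first 3, proteinId349007 made up the 4 genes with the highest level per kilobase in their lowest library, from 776 CPM per kilobase in proteinId342799 to 3056 in proteinId395687.

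Most of the set lay far below these genes. The lowest of the protoapothecia and sexual libraries was at 100 CPM or more in 22 genes, between 20 and 100 CPM in 47 and under 20 CPM in 30. Even in the last of these classes no protoapothecia or sexual library had fewer than 123 counts of a gene. The median ratio of that lowest library to the higher vegetative library was 224 in the top class, 34.3 in the middle class and 22.7 in the low class. Since the classes were cut on that lowest library, such a fall is built in, and nothing is read from it. The median vegetative level was 0.894 CPM in the top, 1.06 CPM in the middle and 0.380 CPM in the low class.

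The shortest model was proteinId306197, with an mRNA of 303 bases. Its levels were 323 and 630 CPM for protoapothecia, 196 and 586 CPM for sexual mycelium, and 0.257 and 0.545 CPM in vegetative mycelium. The longest were proteinId334647 (6291 bases) and proteinId166284 (4999 bases), and both were low per kilobase. The values of proteinId334647 were 37.4 and 57.3 CPM for protoapothecia, 39.6 and 40.6 CPM for sexual mycelium, and 3.00 and 3.35 CPM in vegetative mycelium. That is 7.53, 6.38 and 0.505 CPM per kilobase on average in protoapothecia, sexual and vegetative mycelium, against 1572, 1289 and 1.32 CPM per kilobase for proteinId306197.

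How far the 99 genes were off in vegetative mycelium varied. The vegetative libraries together held 1 to 10 counts for 37 genes, 11 to 50 counts for 45 and more than 50 counts for 17, with a median of 17 counts. In 10 genes 1 of the vegetative libraries had no count at all. For 9 genes the sum was 1 to 3 counts, so their folds are set by very few reads. The median level in protoapothecia was 39.0 CPM per kilobase in the genes with 1 to 10 vegetative counts, 35.2 in those with 11 to 50 and 70.5 in those with more than 50. In sexual mycelium the same medians were 41.2, 29.5 and 44.4 CPM per kilobase. Across the 99 genes Spearman's rho between the levels per kilobase was 0.27 for protoapothecia with vegetative mycelium and 0.24 for sexual with vegetative mycelium, a description over genes that share libraries and length. Since the rule ties both levels to each other, nothing is read from these values.

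The 3 genes with the highest vegetative level were expressed in all 3 tissues. The first, proteinId269493 (3019 bases), had 58.9 and 63.2 CPM in vegetative mycelium, or 687 and 811 counts, and reached 1025 and 843 CPM for protoapothecia and 637 and 800 CPM for sexual mycelium. With its lowest library at 10.1 times the higher vegetative library it was also the gene nearest to the 10-fold limit. The levels of proteinId341200 (1194 bases) were 481 and 408 CPM for protoapothecia, 381 and 487 CPM for sexual mycelium, and 24.0 and 33.4 CPM in vegetative mycelium. Those of proteinId340544 (2016 bases) were 491 and 353 CPM for protoapothecia, 245 and 299 CPM for sexual mycelium, and 21.4 CPM in each vegetative library. Their replicates were close in every tissue, and their pooled folds over vegetative mycelium ran from 15.2 to 19.6 in protoapothecia and from 11.8 to 15.1 in sexual mycelium.

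At the other end, 24 genes had a lowest library more than 100 times the higher vegetative library, and 4 had one more than 1000 times. Besides proteinId342799, proteinId395687 and proteinId397042, the fourth was proteinId323209 (1674 bases), with 3 counts in each vegetative library. It had 692 and 262 CPM for protoapothecia and 324 and 640 CPM for sexual mycelium. On library totals its means were 477 ± 304 CPM for protoapothecia against 482 ± 223 CPM for sexual mycelium (SD, n = 2 each), a ratio of 0.991. The libraries of both tissues spanned the same range on that scale.

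All 99 genes passed edgeR's quasi-likelihood test as higher than in vegetative mycelium both in protoapothecia and in sexual mycelium, at a Benjamini-Hochberg adjusted p under 0.05. Over all 8861 genes tested, 39.8% passed as higher in protoapothecia and 30.7% as higher in sexual mycelium. Since the 10-fold condition used these same contrasts, nothing follows from the counts of the 99. The folds pooled over replicates ran from 13.9 to 18710 for protoapothecia over vegetative mycelium (median 89.4) and from 11.4 to 31412 for sexual over vegetative mycelium (median 82.0). These folds share the vegetative libraries. The ratio of mean levels of sexual over vegetative mycelium had a median of 80.7 on library totals, but 48.6 with TMM, 47.6 with upper-quartile and 41.2 with RLE factors. The lowest library was still at least 10 times the higher vegetative library in 78, 75 and 71 of the 99 genes under these 3 scalings.

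By the rule, on library totals, the 99 genes were the middle group of a larger set. In all, 326 genes with a vegetative count met the 10 CPM and 10-fold conditions in both tissues. Of these 182 were more than 2-fold higher in protoapothecia, 99 lay within 2-fold, and 45 were more than 2-fold higher in sexual mycelium. A further 10 genes met every condition but had 0 counts in both vegetative libraries. When the sexual level was left free, 931 genes met the conditions in protoapothecia, and 14.7% of them had a protoapothecia to sexual ratio within 2-fold, with a median ratio of 5.60. When the protoapothecia level was left free, 510 genes met them in sexual mycelium, 23.5% of them within 2-fold, with a median ratio of 0.919. The 99 genes were 30.4% of the 326, near the 32.1% within 2-fold among all 9554 genes with a count. Of the 4320 genes at 10 CPM or more in all 4 protoapothecia and sexual libraries 49.8% were within 2-fold.

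**Figure D2:**
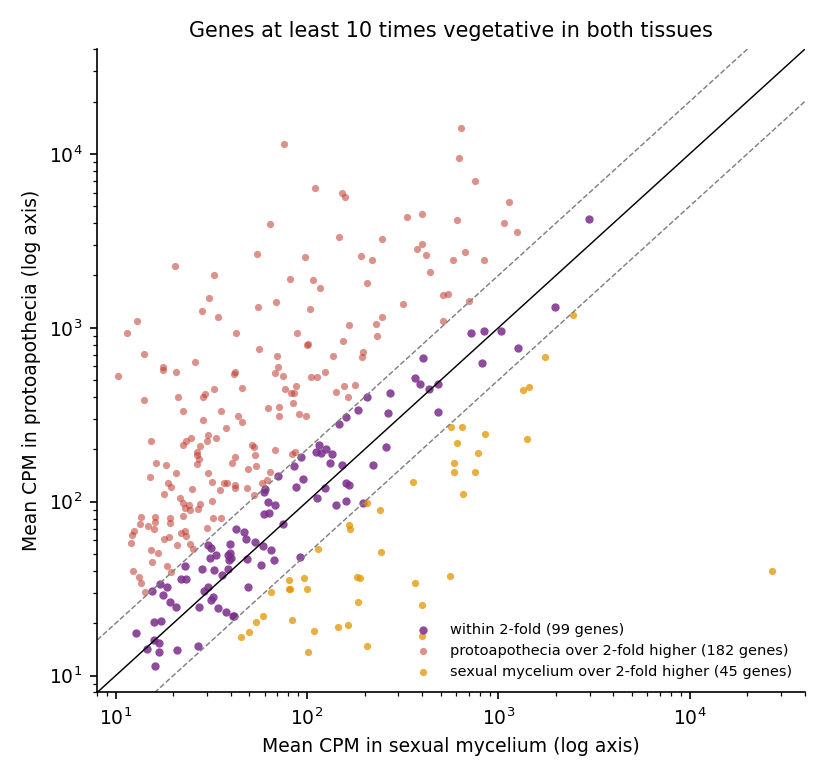
Mean level in protoapothecia against mean level in sexual mycelium (CPM by library totals, log axes) for the 326 genes at 10 CPM or more and at least 10 times vegetative mycelium in both tissues; the solid line marks equal levels and the dashed lines a 2-fold difference. The 99 genes form the band between the dashed lines, with 182 genes above it and 45 below it.

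The genes next to the limits show how fine they are. Just inside the 2-fold limit, proteinId340782 had a protoapothecia to sexual ratio of 1.99 and proteinId363691 of 1.98, while just outside it proteinId399462 and proteinId125601 had 2.02 and 2.03. On the other side, proteinId342983 had a ratio of 0.501 and proteinId343586 of 0.522 inside, against 0.480 for proteinId344384 and 0.479 for proteinId356381 outside. At the 10 CPM limit the lowest libraries were 10.1 CPM in proteinId343461 and 10.4 CPM in proteinId349304 inside, and 9.49 CPM in proteinId250815 and 9.06 CPM in proteinId162605 outside. At the 10-fold limit proteinId269493 and proteinId64336 stood at 10.1 times the higher vegetative library, and proteinId327330 and proteinId340992 at 9.73 and 9.69 times.

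Within the band the 99 genes leaned towards protoapothecia on the scale of library totals. The mean of protoapothecia was the higher in 63 genes and that of sexual mycelium in 36, a split that became 79 and 20 with upper-quartile, 91 and 8 with TMM and 97 and 2 with RLE factors. On library totals the median ratio of protoapothecia over sexual mycelium was 1.21. The log2 ratio was between -1 and -0.5 in 14 genes, between -0.5 and 0 in 22, between 0 and 0.5 in 29 and between 0.5 and 1 in 34. Both protoapothecia libraries lay above both sexual libraries in 26 of the 99 genes, both sexual libraries lay above both protoapothecia libraries in 12, and the libraries overlapped in 61. Among all 9554 genes with a count, 27.6% had both protoapothecia libraries on top and 53.3% both sexual libraries. Because the 2-fold limit was set on this contrast, these counts describe the set only.

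On library totals, the genes with ratios nearest 1, beside proteinId323209, were of quite different levels. For proteinId194821 (2766 bases) the levels were 98.5 and 50.6 CPM for protoapothecia, 89.8 and 59.7 CPM for sexual mycelium, and 2.06 and 1.71 CPM in vegetative mycelium. For proteinId92037 (1288 bases) they were 12.9 and 15.6 CPM for protoapothecia, 13.5 and 15.6 CPM for sexual mycelium, and 0.171 and 0.623 CPM in vegetative mycelium. The gene proteinId343461 (1068 bases), at 21.9 and 10.1 CPM for protoapothecia, 11.0 and 20.8 CPM for sexual mycelium, and 0.0857 and 0.390 CPM in vegetative mycelium, had a ratio of 1.01 although the replicates of each tissue were about as far apart as the limit allows between tissues. On library totals the tissues and the replicates were alike in proteinId92037, and in the other pair of genes the means were closer than the replicates. With TMM factors the log2 ratios of proteinId194821, proteinId92037 and proteinId343461 were 0.61, 0.60 and 0.64. The authors' deposited table gives them protoapothecia over sexual ratios of 1.86, 1.87 and 1.91, and proteinId323209 one of 1.89.

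In the genes named above just inside the 2-fold limit, the libraries of the tissues did not overlap on the scale of library totals. This did not hold for every gene near the limit. The levels of proteinId340782 (731 bases) were 107 and 176 CPM for protoapothecia, 64.4 and 77.4 CPM for sexual mycelium, and 0 and 0.156 CPM in vegetative mycelium. Those of proteinId363691 (1334 bases) were 28.7 and 38.6 CPM for protoapothecia, 14.5 and 19.4 CPM for sexual mycelium, and 0.343 and 0.312 CPM in vegetative mycelium. In both genes the protoapothecia libraries stood above the sexual ones. Conversely, proteinId342983 (2166 bases) had 112 and 85.1 CPM for protoapothecia, 192 and 202 CPM for sexual mycelium, and 3.17 and 4.83 CPM in vegetative mycelium. The other gene on that side, proteinId343586 (1065 bases), had 59.0 and 37.4 CPM for protoapothecia, 102 and 83.0 CPM for sexual mycelium, and 0.686 and 1.09 CPM in vegetative mycelium. In this pair both sexual libraries were above both protoapothecia libraries on library totals. With TMM factors the log2 fold change of protoapothecia over sexual mycelium was -0.37 for proteinId342983 and -0.32 for proteinId343586, with adjusted p of 0.253 and 0.393 by edgeR's quasi-likelihood test, and with RLE factors the log2 ratios were -0.06 and -0.01.

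The equality of the tissues depended on how the libraries were scaled. On library totals the median log2 ratio of protoapothecia over sexual mycelium was -0.75 over 8766 genes with a count in both tissues and 0.28 over the 99 genes. With TMM factors (from a trimmed mean of log ratios), which take most genes to be unchanged between libraries, the medians were -0.12 and 0.91. With upper-quartile factors they were -0.42 and 0.61, and with RLE factors (the median of ratios) 0.19 and 1.22. A scaling moves every gene's ratio by nearly the same amount, so the distance of the 99 genes from the median gene stays as the rule left it on library totals. The number of the 99 genes within 2-fold was 99 on library totals, by definition, 75 with upper-quartile, 57 with TMM and 39 with RLE factors. Each of these scalings raised the ratios, which started within the limits, so genes could leave the range on the protoapothecia side alone.

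**Figure D3:**
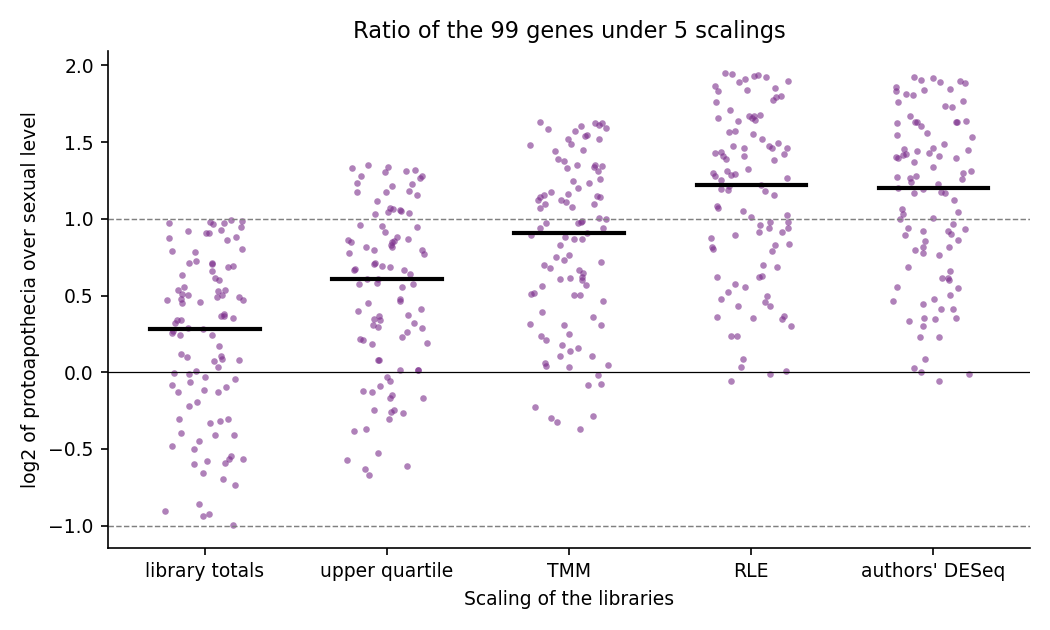
The log2 ratio of protoapothecia over sexual mycelium of each of the 99 genes (points) with its median (bar) under 4 scalings of the libraries and as the ratio in the authors' deposited DESeq table; dashed lines mark a 2-fold difference. The median moves from 0.28 on library totals to 0.61, 0.91 and 1.22 with upper-quartile, TMM and RLE factors, so that 24, 42 and 60 genes come to lie more than 2-fold higher in protoapothecia.

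The deposited DESeq ratios were close to the RLE scale. In the authors' deposited table the ratio of protoapothecia over sexual mycelium had a median of 2.30 over the 99 genes, from 0.96 to 3.79, against a median of 1.10 over all genes with a ratio, and 40 of the 99 were within 2-fold. The authors' deposited table lists 54 of the 99 genes with an adjusted p under 0.05 and a ratio above 1 and 0 with a ratio below 1, where 33.8% and 30.1% of all genes with a value there passed in these directions. Against vegetative mycelium the authors' deposited table gives ratios of 13.3 to 7138 for protoapothecia (median 79.1) and of 5.78 to 6106 for sexual mycelium (median 37.8), and 14 of the 99 genes have a sexual over vegetative ratio below 10 there. An example is proteinId269493, with ratios of 14.83 for protoapothecia and 5.98 for sexual mycelium over vegetative mycelium in the authors' deposited table.

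With edgeR's quasi-likelihood test on TMM factors, 37 of the 99 genes were called higher in protoapothecia than in sexual mycelium and 0 lower at an adjusted p under 0.05, and 44 and 0 at an unadjusted p under 0.05, while 30.7% and 36.9% of all genes tested were called higher and lower. DESeq2 called 56 of the 99 higher and 0 lower, where 35.3% and 31.4% of all genes with an adjusted p were called. With RLE factors edgeR called 51 and 0, against 36.1% and 31.8% of all genes tested. With upper-quartile factors it called 21 and 0, against 26.1% and 41.6%, and with library totals 5 and 2, against 20.8% and 46.4%. The 2 genes called lower on library totals were proteinId342983 and proteinId343586, and the 5 called higher were proteinId180777, proteinId340782, proteinId344081, proteinId363691 and proteinId64336, of which proteinId180777 was picked out after its values were seen. As the rule held these ratios within 2-fold, the counts are no evidence on the set. The smallest adjusted p on TMM factors belonged to proteinId363691, given above, and to proteinId344081 (1607 bases), with 131 and 96.0 CPM for protoapothecia, 64.6 and 55.1 CPM for sexual mycelium, and 2.23 and 3.51 CPM in vegetative mycelium.

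The replicates of sexual mycelium differed more over these genes than those of protoapothecia. The libraries of sexual mycelium were more than 2-fold apart in 34 of the 99 genes, against 10.9% of the 4320 genes at 10 CPM or more in all 4 protoapothecia and sexual libraries. In protoapothecia 14 of the 99 were more than 2-fold apart, against 5.42% of the 4320. The difference in sexual mycelium had a direction, since replicate 2 was above replicate 1 in 71 of the 99 genes (65.0% of the 4320) and more than 2-fold above it in 30, while replicate 1 was more than 2-fold above replicate 2 in 4. Over the 4320 genes the last pair of counts was 319 and 152. Of the 182 genes more than 2-fold higher in protoapothecia, 80 had sexual replicate 2 more than 2-fold above replicate 1 and 1 the reverse, and of the 45 more than 2-fold higher in sexual mycelium 15 and 4 did. In vegetative mycelium the replicates were more than 2-fold apart in 33 of the 89 genes with a count in both libraries, at levels where the counts of the 99 are few. Of the 4320 genes 4217 had a count in both, and 4.72% of the 4217 were more than 2-fold apart. There too replicate 2 was the higher, in 62 of the 89 genes (48.0% of the 4217), and more than 2-fold so in 27 against 6 the other way (145 against 54 over the 4217). The groups of 182 and 45 genes were similar, over those with a count in both vegetative libraries. Their replicates were more than 2-fold apart in 35.6% and 51.4%, and replicate 2 was the higher in 59.8% and 60.0%. What part sexual replicate 2 has in the similarity of the tissues was not tested.

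**Figure D4:**
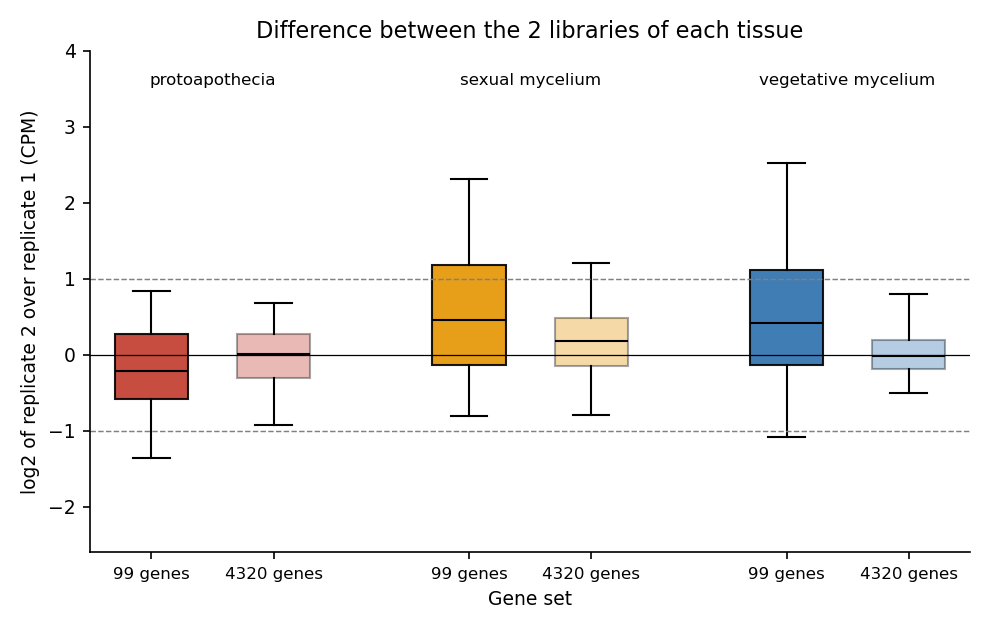
Log2 of replicate 2 over replicate 1 (CPM by library totals) in each tissue for the 99 genes and for the 4320 genes at 10 CPM or more in all protoapothecia and sexual libraries; boxes show quartiles with the median and whiskers the 5th and 95th percentiles, dashed lines mark a 2-fold difference, and genes at 0 counts in 1 of the libraries are left out (10 of the 99 in vegetative mycelium). In sexual mycelium the box of the 99 genes is centred on 0.45 and that of the 4320 genes on 0.18; in protoapothecia the centres are -0.22 and 0.01.

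The widest gaps between sexual replicates were in proteinId322197 (4816 bases) and proteinId133862 (2302 bases). The first had 104 and 87.5 CPM for protoapothecia, 22.8 and 261 CPM for sexual mycelium, and 0.686 and 0.623 CPM in vegetative mycelium, an 11.5-fold gap between the sexual libraries. The second had 303 and 355 CPM for protoapothecia, 116 and 856 CPM for sexual mycelium, and 1.20 and 1.40 CPM in vegetative mycelium, a 7.38-fold gap. In both, the steady protoapothecia libraries fell between a low and a high sexual library, so the mean ratio of 0.677 describes neither sexual library. The 4 genes with sexual replicate 1 more than 2-fold above replicate 2, proteinId338254, proteinId338384, proteinId341355 and proteinId358587, were picked out after their values were seen. Of these proteinId358587 had 22.2 and 59.8 CPM for protoapothecia, 66.4 and 11.1 CPM for sexual mycelium, and 0.171 and 0.545 CPM in vegetative mycelium.

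In protoapothecia the widest gaps were in proteinId343965 (1666 bases) and proteinId337517 (840 bases). The first had 432 and 128 CPM for protoapothecia, 59.5 and 236 CPM for sexual mycelium, and 2.40 and 1.71 CPM in vegetative mycelium, and so varied widely in both tissues. The second had 503 and 167 CPM in protoapothecia, a 3.02-fold gap, while the sexual libraries were close, at 180 and 188 CPM, and the vegetative libraries held 0.343 and 0.156 CPM. Among the 14 genes with protoapothecia replicates over 2-fold apart, replicate 1 was the higher in 12. The 4320 genes at 10 CPM or more leaned the same way, with replicate 1 more than 2-fold higher in 176 and replicate 2 in 58. Over the 99 genes Spearman's rho between the log2 replicate ratios of sexual mycelium and of protoapothecia was 0.06, a description over genes that share the same libraries.

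Taken against each sexual library alone, the mean of protoapothecia was within 2-fold of sexual replicate 1 in 65 genes and of replicate 2 in 83, and of both in 53. It was more than 2-fold above replicate 1 in 31 genes and above replicate 2 in 7, and more than 2-fold below them in 3 and 9. The median ratio of protoapothecia to sexual mycelium was 1.47 by replicate 1 and 1.04 by replicate 2. When the rule was applied without sexual replicate 1, 134 genes met it, among them 83 of the 99, and without sexual replicate 2, 91 genes met it, among them 65 of the 99. All 4 protoapothecia and sexual libraries lay within 2-fold of each other in 40 of the 99 genes, with median levels of 33.8 CPM per kilobase in protoapothecia, 27.9 in sexual mycelium and a median ratio of 1.18. As the rule held the means within 2-fold, and no share over other genes is given here, these counts describe the set only.

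A property the rule did not use is the length of the mRNA. It had a median of 1526 bases in the 99 genes (quartiles 991 and 2183), 1364 bases in the 182 genes more than 2-fold higher in protoapothecia, 1271 bases in the 45 more than 2-fold higher in sexual mycelium, and 1230 bases over all gene models. The 4320 genes that reached 10 CPM in all 4 libraries had a median of 1499 bases, close to that of the 99 genes. The level condition is not per length, so longer models reach it at a lower level per kilobase. Models over 2000 bases were 35 of the 99, or 35.4%, against 29.8% of the 4320 and 22.5% of all gene models, and models under 1000 bases were 26.3%, 23.5% and 38.6%. No test was made of these shares.

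**Figure D5:**
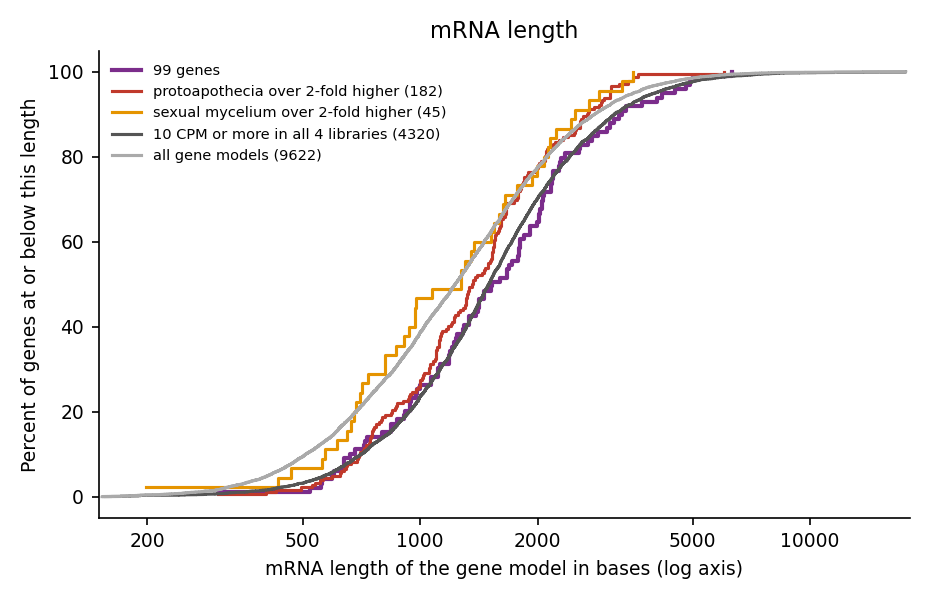
Cumulative percent of genes by mRNA length in bases (log axis) for the 99 genes, the 182 and 45 genes more than 2-fold higher in protoapothecia or in sexual mycelium, the 4320 genes at 10 CPM or more in all 4 libraries, and all 9622 gene models. The curve of the 99 genes, with a median of 1526 bases, runs beside that of the 4320 genes and to the right of that of all gene models.

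Within the 99 genes the replicate difference in sexual mycelium was uneven over length, and no shares over other genes are given for these classes. The median sexual level differed between the classes too. It was 95.1 CPM over 2000 bases, 49.0 CPM at 1000 to 2000 bases and 38.6 CPM under 1000 bases. Among the 35 genes over 2000 bases, sexual replicate 2 was above replicate 1 in 29, with a median ratio of 1.83, among the 38 genes of 1000 to 2000 bases in 24, with a median ratio of 1.19, and among the 26 genes under 1000 bases in 18, with a median ratio of 1.17. Spearman's rho between length and the log2 ratio of the sexual replicates was 0.23 over the 99 genes, again a description over genes of the same libraries. The median protoapothecia to sexual ratio was 1.30 in the genes over 2000 bases, 1.07 in those of 1000 to 2000 bases and 1.25 in those under 1000 bases. The rule held these ratios between 0.5 and 2, so the classes had little room to differ.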

How the data were processed

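The deposited table holds raw read counts per gene model for 6 libraries and the mRNA length of each model in bases, per the file headers. It also holds a linear ratio and an adjusted p-value per comparison from DESeq, as the authors deposited them; the submitters' processing notes name DESeq and no version of it, and the deposited p-values are rounded to 2 decimals. For the aligner, counter, build, annotation and strand setting: not given in the sources used here. The deposited LOX and "classic" values were not used, and no per-sample column was left out.

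CPM were computed from library totals. The members and lists were chosen with earlier results of these data known. Between 11589777 and 12835772 counts per library, intervals are 95% exact (Clopper-Pearson) ones and cover counting error only, since amplified reads are not independent molecules. For calls, all 6 libraries were fitted by tissue with edgeR 4.0.16 (limma 3.58.1, R 4.3.3; filterByExpr, TMM, robust quasi-likelihood, Benjamini-Hochberg adjustment over 8861 genes, 761 left out); all 99 genes passed the filter. DESeq2 1.42.0, other scalings, no filter, a replicate term and each library left out were alternatives. No sequence was used. Genes named were set by fixed ranks: level, level per kilobase, fold, ratio, vegetative level, length, replicate gap, adjusted p and the genes next to each limit; others are marked where they occur.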

Additional observations from a re-analysis of the deposited data

How the results depend on the processing

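Scaling and limits decided how many genes met the conditions, 99 as reported. There were 66 with TMM (44 of the 99 among them), 61 with upper-quartile (51) and 54 with RLE factors (28), 172 at 5 times vegetative mycelium, 62 within 1.5-fold and 152 within 3-fold. Leaving out 1 library gave 91 to 134. Of the 99 genes, 37 were called between protoapothecia and sexual mycelium by edgeR with TMM factors, against 7 with library totals, 21 with upper-quartile factors, 56 by DESeq2, and 24 (without protoapothecia replicate 1) to 46 (without sexual replicate 2) when 1 library was left out. Over all genes 67.5% were called with TMM factors, 67.2% with library totals, 67.7% with upper-quartile factors, 66.7% by DESeq2 and 57.9% to 61.0% with 1 library left out; the cause was not tested. Over all genes, sexual against vegetative mycelium had 4033 calls, and 2129 to 4276 with 1 library left out, the lowest when vegetative replicate 1 was dropped (2421 when the other vegetative library was), the lone library being given the spread of the other tissues. The share of calls that were higher was 45.4% by TMM and 30.9% with library totals for protoapothecia against sexual mycelium, and 67.5% and 88.3% for sexual against vegetative mycelium. Of 81 fold changes of named genes, 5 lost and 9 gained a call under at least 1 alternative, 5 uncalled ones moved by more than the spread of the replicates, and 0 of those called changed sign.

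Equal replicate numbers were not taken as pairs: over 8861 genes the replicate differences of the tissues correlated at 0.06 (protoapothecia with sexual), -0.04 (protoapothecia with vegetative) and -0.20 (sexual with vegetative mycelium). With a replicate block, calls over all genes were 5698 against 5985 for protoapothecia against sexual mycelium, 6472 against 6657 for protoapothecia and 3696 against 4033 for sexual mycelium against vegetative mycelium, and 38, 99 and 99 of the 99 genes were called. With the vegetative numbers crossed, an alternative chosen after seeing the data, sexual against vegetative mycelium had 3980 calls.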
